A study of Rattus norvegicus with 60 samples.

Results

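HR and LR male rats, the products of selective breeding in opposite directions, were compared in the prefrontal cortex at postnatal day 21 (P21). The lines share a Sprague-Dawley background and, by the series title, model differing levels of anxiety- and depression-like behaviour. The names are those of bred high and low responders to an unfamiliar environment, so high and low in them do not refer to anxiety. The comparison rests on 10 of the 60 samples in the series, 5 arrays from HR (arrays 1 to 5) and 5 from LR (arrays 6 to 10), taken from the prefrontal table by line and age. The labels name no treatment, and the groups differ in no label but the line. The other prefrontal groups, HR and LR at postnatal days 7 and 14 (P7 and P14), and the amygdala of both lines at P21 are used beside it, each with 5 arrays per line.

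Each sample was labelled RNA on a single-colour NimbleGen array, and each value is an intensity, a normalized brightness with no fixed unit and no detection call. Differences are HR minus LR on the log2 scale with the standard error (SE) of the fit, and a negative value is a lower intensity in HR. A row of the table is 1 transcript, and a row was called when its p-value, adjusted over all 18564 rows by the Benjamini-Hochberg method (limma), was under 0.05. Whether each array is a separate animal is not in the labels, and the p-values cover the spread between samples, which may be technical. All 10 sample codes recur among the P21 amygdala samples. Arrays 2 and 4 of HR share a code prefix, as do arrays 6 and 9 of LR, with no label saying what the prefix stands for.

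The prefrontal cortex is the frontal part of the neocortex that sends projections to the amygdala and other limbic regions and takes part in the control of emotional responses. In the third postnatal week of the rat its neurons form synapses, oligodendrocytes begin to myelinate axons, astrocytes mature, and microglia, the resident immune cells, prune synapses with the help of complement proteins. Bulk tissue holds all these cells, so fewer cells of a type and less RNA per cell cannot be told apart in the values below.

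No row was called at P21 (0 of 18564, 0%), and the smallest adjusted p was 0.114. At an unadjusted p under 0.05 stood 1458 rows (7.85%), 600 with the higher mean in HR (3.23%) and 858 with the lower (4.62%). Without HR array 1 they were 948, 442 higher and 506 lower. The arrays of the lines did not overlap in 314 rows (1.69%), with HR above LR in 121 (0.652%) and below it in 193 (1.04%). The median SE of a difference was 0.26 on the log2 scale, and the median difference over all rows was -0.01. In the amygdala of the same age and lines the same test called 1686 of 17519 rows (9.62%). Of these, 959 were higher in HR (5.47%) and 727 lower (4.15%). With blocks of 12 array numbers in the fit it called 616, 449 higher and 167 lower. No label names such blocks, and the HR amygdala arrays shared theirs with array 36 alone of LR at P21. Block and line were thus nearly confounded there.

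The HR arrays were less alike than the LR arrays. The mean correlation of an array with the others of its group lay between 0.871 and 0.920 in HR and between 0.949 and 0.952 in LR. The SD over arrays was larger in HR for 63.0% of rows. This was not particular to P21: the median SD of a row was 0.44 in HR and 0.35 in LR at P14. At P7 it was 0.40 and 0.33, and in the amygdala at P21 it was 0.29 and 0.32. Array 1 stood lowest in correlation, and of 735 measured genes on the lists described below, 47 lay more than 4-fold below the median of the other 9 arrays in it. The LR arrays each held between 0 and 2 such genes. Array 2 held the most genes more than 4-fold above the other 9 arrays, with 11, against 0 to 4 in LR arrays. Values without array 1 or 2 are given below for several genes whose values it moves.

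The cortex markers *Pcp4*, *Fezf2* and *Emx1* stood above the intensity of the median row, 74.0, in all 10 arrays, which is not a detection call. *Pcp4*, a calmodulin regulator of deep-layer neurons, ranged over 2566 to 17021 in HR and 7616 to 12699 in LR. *Fezf2*, the transcription factor of deep-layer projection neurons, ranged over 222 to 478 and 252 to 442, and *Emx1*, a marker of the dorsal telencephalon, over 114 to 209.6 and 163 to 215. Of 18 measured projection neuron markers, 15 had a negative difference, and the list median was -0.18, beside -0.01 over all rows. In the same list 4 were dimmer than the median row in both lines, 0 were called and 1 stood at an unadjusted p under 0.05. That gene, *Nrgn*, which encodes the postsynaptic calmodulin-binding protein neurogranin, differed by -1.47 ± 0.66, and by -0.83 without array 1. With 1 array left out its unadjusted p rose as high as 0.187 in limma, above the threshold.

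*Sox2* had the smallest p of all rows. It encodes a transcription factor that keeps neural stem cells undifferentiated and is also expressed in astrocytes. Its intensity was 161, 856, 226, 146 and 465 in HR arrays 1 to 5. In LR arrays 6 to 10 it was 1787, 1917, 1429.5, 1968 and 1023. Every HR array lay below every LR array, and the HR mean on the log2 scale was 18.5% of that of LR. The difference was -2.44 ± 0.45, with an adjusted p of 0.114 in limma, which missed the threshold. On the log2 scale the HR arrays spread over a wider range than the LR arrays, with array 2 nearest to LR. Without array 2 the difference was -2.83 and the adjusted p 0.00653, and without array 5 they were -2.60 and 0.0397, so the call for *Sox2* turned on single arrays. With each of the 10 arrays left out in turn the difference stayed between -2.83 and -2.19.

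At the younger ages the *Sox2* difference had the same sign and was smaller, -0.60 ± 0.45 at P14 and -0.71 ± 0.45 at P7. The change of the line difference from P14 to P21 was -1.84 ± 0.64, with an adjusted p of 0.666. In the amygdala at P21 *Sox2* intensity was 638, 574, 332, 317 and 348 in HR and 1346, 1635, 1589, 1918 and 1825 in LR. The groups did not overlap there either, and the difference, -1.97 ± 0.19, was called with an adjusted p of 1.6e-08 in limma. The astrocyte list, whose cells also express *Sox2*, held 0 of 19 measured genes at an unadjusted p under 0.05. Its median difference was -0.19, and its summed intensity ranged over 5224 to 37340 in HR and 19390 to 33150 in LR.

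*Hba-a3*, an alpha-globin family member, had the most negative difference of the named genes. Its intensity was 116, 130.2, 260.2, 370.0 and 53.5 in HR. In LR it was 742, 741, 984, 1429 and 1019.6. The groups did not overlap, and the difference was -2.66 ± 0.56 with an adjusted p of 0.182. Here the P14 difference was -1.52 ± 0.56, the P7 difference -0.65 ± 0.56, and the amygdala difference at P21 -2.12 ± 0.28, called with an adjusted p of 3.2e-06.

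The abundant globins, which carry oxygen in red blood cells, had differences near 0. *Hba-a1* differed by -0.00 ± 0.19, *Hba-a2* by -0.11 ± 0.17 and *Hbb* by -0.10 ± 0.27. *Hba-a1* ranged over 38042 to 45926 in HR and 37902 to 46329 in LR, and the ranges overlapped. Summed over the 10 measured blood markers, none of them dim in both lines, the intensity was 112200 to 141300 in HR and 128900 to 136500 in LR. Of the 10, 9 had a negative difference, and *Hba-a3* alone stood at an unadjusted p under 0.05. The list median was -0.20, beside -0.065 over rows at or above the median row. The globin genes are near-identical copies of each other, so the *Hba-a3* row may hold signal of more than 1 gene.

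**Figure D1:**
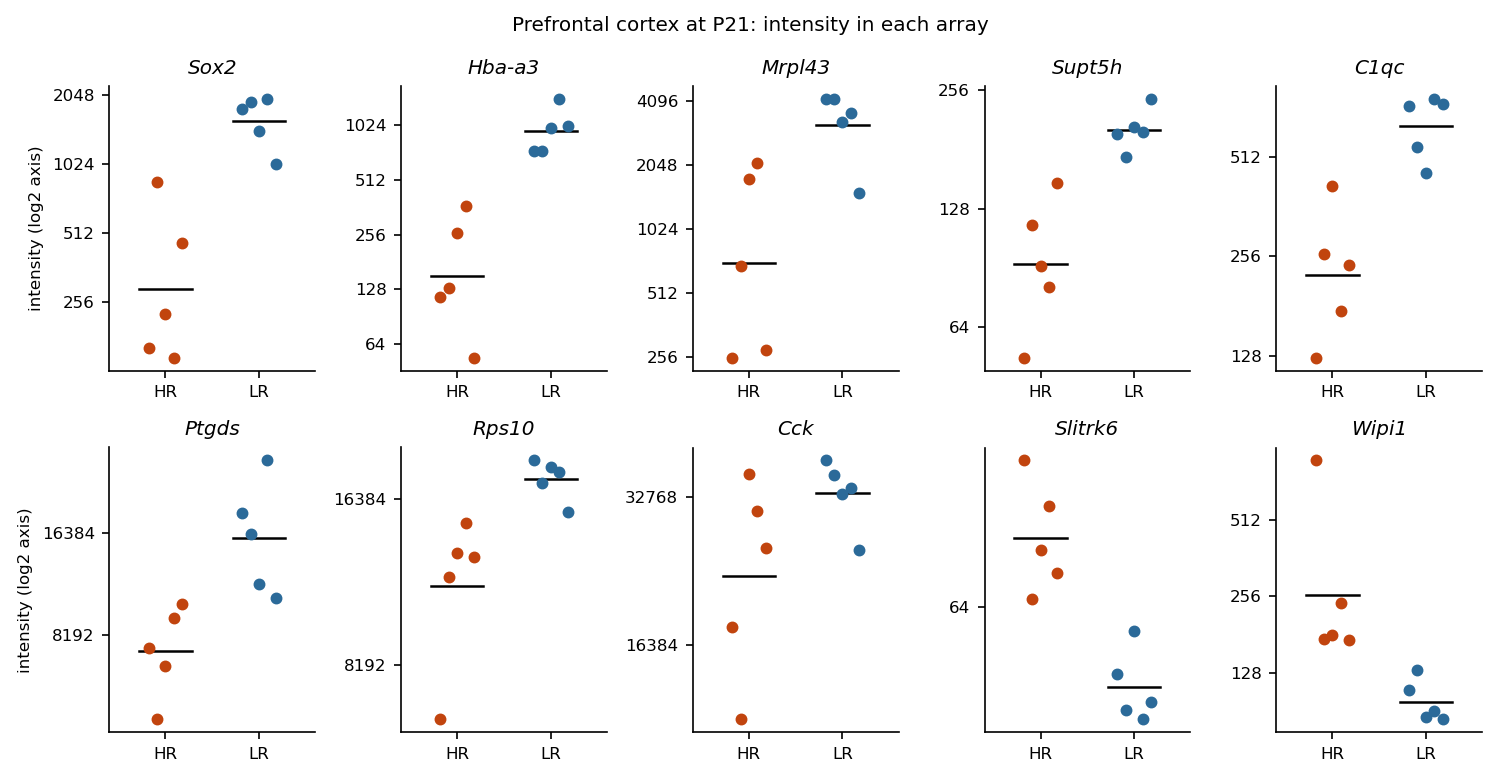
Intensity (log2 axis) of 10 genes in each prefrontal array at P21; points are arrays, in array order from left to right within a line, and the horizontal lines are the means on the log2 scale. *Sox2*, *Hba-a3*, *Supt5h*, *C1qc*, *Ptgds*, *Rps10*, *Slitrk6* and *Wipi1* do not overlap between HR and LR, while *Mrpl43* and *Cck* do.

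*Mrpl43* encodes a protein of the large subunit of the mitochondrial ribosome. Its intensity was 254, 686, 1761, 2087 and 277 in HR. In LR it was 4179, 4171, 3266, 3596 and 1508. LR array 10 lay below HR arrays 3 and 4, so the groups overlapped. The P21 difference was -2.15 ± 0.53 (adjusted p = 0.434), beside -1.21 ± 0.53 at P14 and -1.60 ± 0.53 at P7. In the amygdala at P21 it was -0.50 ± 0.13, called with an adjusted p of 0.014.

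*Supt5h* encodes a subunit of the elongation factor that holds and releases RNA polymerase II. It stood at 53.6, 116, 91.8, 80.9 and 148 in HR and 198, 173, 206, 199.8 and 243 in LR, with no overlap. The P21 difference was -1.13 ± 0.23 (adjusted p = 0.114). It was 0.03 at P14 and 0.14 at P7, and 0.09 ± 0.16 in the amygdala at P21 (adjusted p = 0.81).

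A provisional locus, RGD1563145, had the next smallest p after *Sox2* and differed by -1.17 ± 0.23 (adjusted p = 0.114), without overlap between lines. It lies outside the naming rule and is given because it was called without array 4, at -1.38 with an adjusted p of 0.0125.

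*Spt1*, a salivary gland protein gene, was dim in HR. It stood at 67.4, 43.7, 47.6, 65 and 58.4 there and at 91.4, 127, 255, 213 and 98.6 in LR. The difference was -1.37 ± 0.27 (adjusted p = 0.114), and no amygdala row carried the gene. *Trappc6a*, a subunit of a complex that tethers vesicles at the Golgi, differed by -1.36 ± 0.34 without overlap between lines, beside -1.01 ± 0.21 in the amygdala (called, adjusted p = 0.0011). Its P14 and P7 differences were -0.13 and -0.14.

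*Hist1h2bg*, a core histone gene of a family with many near-identical copies, differed by -1.59 ± 0.39, and its signal on the array may be shared with those copies. The amygdala difference of that row was -0.84 ± 0.22 (called, adjusted p = 0.01). *Nipsnap3b* differed by -1.10 ± 0.28, with the same sign in its second row. In the amygdala it differed by -0.97 ± 0.25 (called, adjusted p = 0.01).

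*Zfp771*, a zinc finger protein gene, had the opposite sign at the younger ages, at an unadjusted p under 0.05 for both. Its P21 intensity was 203, 124, 212, 196 and 136 in HR and 364, 329.9, 321, 379 and 223 in LR, with no overlap. The P7 and P14 differences were 0.48 ± 0.21 and 0.67 ± 0.21, and the P21 difference -0.90 ± 0.21. From P14 to P21 it changed by -1.57 ± 0.30, with an adjusted p of 0.184 in limma, which missed the threshold. No row passed it for that change of the line difference (0 of 18564, 0%, with 1262 rows or 6.8% at an unadjusted p under 0.05, 628 higher or 3.38% and 634 lower or 3.42%). The amygdala difference at P21 was -0.39 ± 0.21 (adjusted p = 0.28).

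The remaining genes with the lower mean in HR were *C8h15orf61* (-1.28 ± 0.30, no overlap), the zinc finger gene *Zfp414* (-1.30 ± 0.33) and *Ercc5* (-0.76 ± 0.19), which encodes an endonuclease of nucleotide excision repair. *Zfp414* and *Ercc5* overlapped between lines. Their amygdala differences at P21 had the other sign, 0.41 ± 0.34 and 0.51 ± 0.29, with adjusted p of 0.52 and 0.3.

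The 11 genes described with the higher mean in HR had differences between 0.74 and 1.39, and in 8 of them the LR mean lay below 74.0, the intensity of the median row. *Slitrk6*, a transmembrane protein that promotes synapse formation, stood at 113, 65.9, 79.9, 94.6 and 73.1 in HR. In LR it stood at 49.4, 42.9, 58.3, 41.4 and 44.3. The groups did not overlap, and the difference was 0.84 ± 0.19 (adjusted p = 0.349). It was 0.19 at P14 and -0.01 at P7.

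*Wipi1*, which acts in autophagosome formation, had the largest difference of those 11 genes, 1.39 ± 0.41 (adjusted p = 0.437). Its intensity was 876, 174, 181, 242 and 172 in HR and 109.6, 132, 85.7, 90.5 and 84.2 in LR. Array 1 lay far above the other HR arrays, and the difference was 0.94 without it. A second row of *Wipi1* differed by -0.10.

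*Kcnn4*, a calcium-activated potassium channel, differed by 0.93 ± 0.24, and by 0.69 without array 1, its highest. *Tmem132e*, a membrane protein needed for hearing, differed by 0.88 ± 0.23. *S1pr4*, a lysophospholipid receptor of immune cells, differed by 0.94 ± 0.28, and *Plscr1*, an interferon-induced phospholipid scramblase, by 0.88 ± 0.26.

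The other 5 were *Krtap9-7* (1.298 ± 0.39), *Krtcap3* (1.06 ± 0.28), *Kiaa1671* (0.89 ± 0.26, second row 0.28), *Ankrd40* (0.75 ± 0.23) and *F13b* (0.74 ± 0.19, second row 0.25), the last encoding a clotting factor subunit. The adjusted p of these 11 genes lay between 0.349 and 0.453. The 10 measured in the amygdala at P21, all but *Slitrk6*, were not called there.

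**Figure D2:**
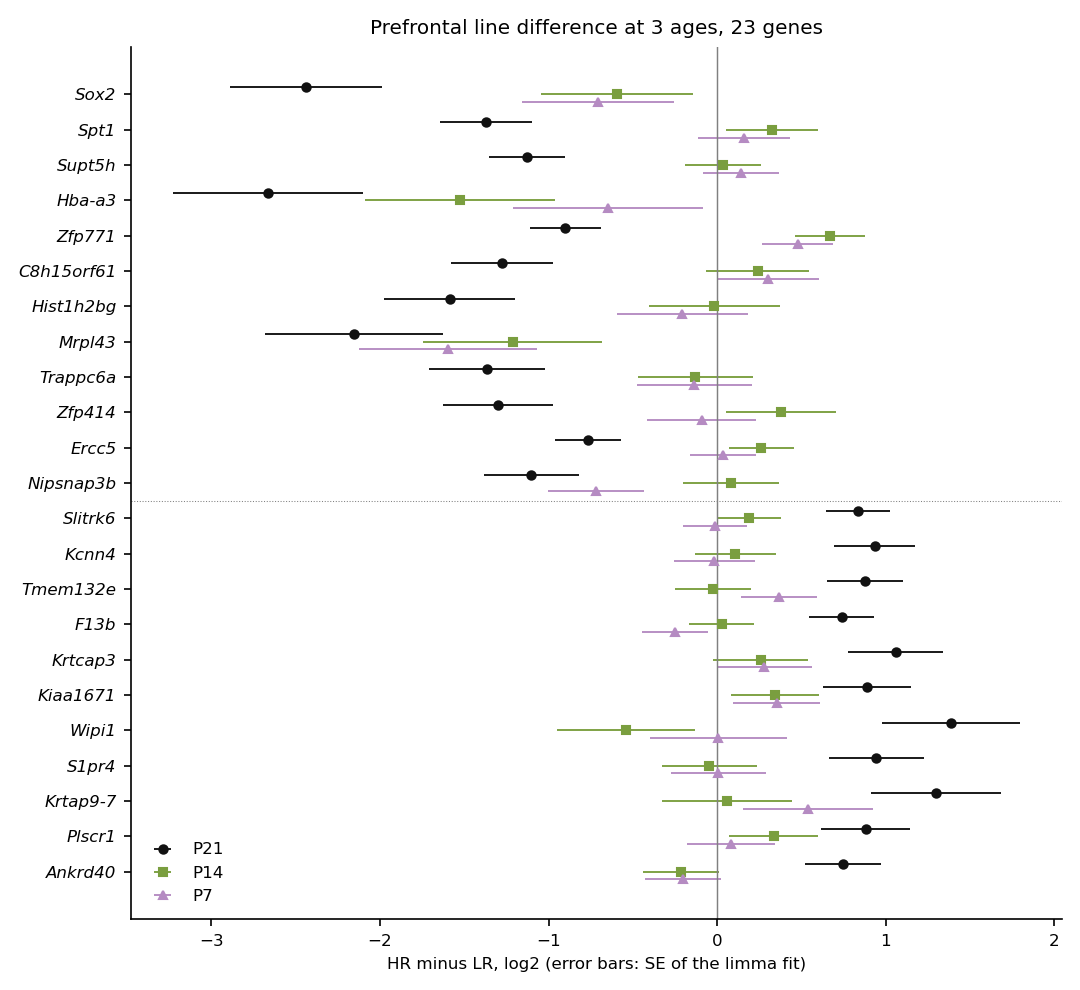
HR minus LR in the prefrontal cortex (log2, error bars are SE) at P21, P14 and P7 for 12 genes with the lower mean in HR at P21 and 11 with the higher. The genes were chosen on the P21 values; *Sox2*, *Hba-a3* and *Mrpl43* are below 0 at all 3 ages, and *Zfp771* is above 0 at P7 and P14.

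No row was called in the prefrontal cortex at P14 (0 of 18564, 0%) or P7 (0 of 18564, 0%). At an unadjusted p under 0.05 stood 1017 rows (5.48%) at P14, 448 higher in HR (2.41%) and 569 lower (3.07%). At P7 they were 896 (4.83%), 534 higher (2.88%) and 362 lower (1.95%). The change of the line difference from P7 to P21 gave 0 called rows (0%), and 984 (5.3%) at the unadjusted threshold, 380 of them higher (2.05%) and 604 lower (3.25%).

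Genes of 39 lists, chosen for cell types, transmitters and metabolism, were read from the same fit. Of 735 distinct genes measured, 0 were called. The counts below are of members at an unadjusted p under 0.05, to be read beside 3.23% higher and 4.62% lower over all rows. Brighter rows leaned lower in HR as a whole: 43.6% of rows at or above the median row had a positive difference, against 54.3% of the dimmer rows. Fitted alone, the 9282 brighter rows held 624 lower and 308 higher at the unadjusted threshold. The ribosomal and oxidative phosphorylation lists, with 0 members dim in both lines, are to be read beside those counts.

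Cytosolic ribosomal proteins had the lowest median of any list, -0.32, and 52 of 60 measured members had a negative difference. At the unadjusted threshold 12 were lower in HR and 0 higher, and 6 did not overlap between lines, beside 1.04% of all rows with HR below LR. *Rps10*, a protein of the small subunit, stood at 6529.5, 11846, 13098, 14804 and 12858 in HR. In LR it stood at 19255, 17525, 18697, 18355 and 15523. All HR arrays lay below all LR arrays, and the difference was -0.64 ± 0.22, or -0.44 without array 1, its lowest.

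*Rpl29*, of the large subunit, ranged over 5640.1 to 13291 in HR and 12323 to 20599 in LR and overlapped between lines. It differed by -0.64 ± 0.22, and by -0.42 without array 1. *Rpl13* differed by -0.62 ± 0.22 and *Rpl24* by -0.68 ± 0.25. Without array 1 the list held 6 members at the unadjusted threshold with a median of -0.27, without array 8 or 9 it held 8, and without array 4 or 10 it held 18.

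At the younger ages the ribosomal median was 0.04 (P14) and -0.08 (P7). From P14 to P21 the change of the line difference was negative at the unadjusted threshold for 10 of the 60 genes, beside 3.42% of all rows, and positive for 0. From P7 to P21 it was negative for 7, beside 3.25% of all rows. In the amygdala at P21 the median of the same list was -0.14. Ribosomal protein genes have many processed pseudogenes, and their probes may take up signal from more than 1 locus.

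Complement, antigen presentation and interferon genes followed, with a median of -0.28 over 27 measured members, 10 lower and 0 higher at the unadjusted threshold. The *C1q* genes encode the chains of the protein that starts the classical complement cascade and tags synapses for microglia. *C1qc* stood at 126, 259.7, 418, 175 and 241 in HR. In LR it stood at 728, 546, 458, 764 and 737. No HR array reached the lowest LR array, and the difference was -1.49 ± 0.38 (unadjusted p = 0.00052, adjusted p = 0.434). With each array left out in turn it stayed between -1.72 and -1.29.

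The other chains overlapped between lines. *C1qa* stood at 98.2, 344, 564, 434 and 432 in HR and 626, 697, 552, 856 and 583 in LR, a difference of -1.02 ± 0.37. *C1qb* stood at 78.2, 421, 569.9, 569 and 445 and 679.7, 524, 912, 1139.5 and 769, a difference of -1.18 ± 0.50. Array 1 was the lowest for both, and without it the differences were -0.58 and -0.65, past the unadjusted threshold in neither.

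The rest of the 10 were the immunoproteasome subunits *Psmb8* (-1.02 ± 0.39) and *Psmb9* (-0.98 ± 0.42), the interferon-response genes *Irf7* (-0.73 ± 0.28) and *Isg15* (-0.89 ± 0.36), the complement component *C4a* (-0.78 ± 0.31), and *RT1-A1* (-0.85 ± 0.37) and *RT1-Da* (-0.58 ± 0.26) of the major histocompatibility complex. *RT1* genes are a family of close copies, so those rows may share signal. The P14 median of the list was -0.01, the P7 median -0.10 and the amygdala median at P21 -0.03. Without array 1 or without array 9 the list held 5 members at the unadjusted threshold. With 1 array left out the unadjusted p in limma rose as high as 0.0665 for *Irf7* and 0.0576 for *Isg15*.

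Of 15 measured microglia markers, 3 of them shared with that list, 5 were lower and 0 higher at the unadjusted threshold. These were *C1qc*, *C1qa*, *C1qb*, *Trem2*, a microglial lipid receptor (-0.54 ± 0.25), and its signalling adaptor *Tyrobp* (-0.74 ± 0.31, or -0.56 without array 1). The summed intensity of the list was 2284 to 6654 in HR and 4854 to 7824 in LR, and 5 of the 15 markers were dim in both lines. The list median was -0.22. Without array 1 the median was -0.10, and 1 marker, *C1qc*, was lower and 1 higher at that threshold. Without array 9 there were 2 lower, and without array 2 or array 8 there were 3.

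**Figure D3:**
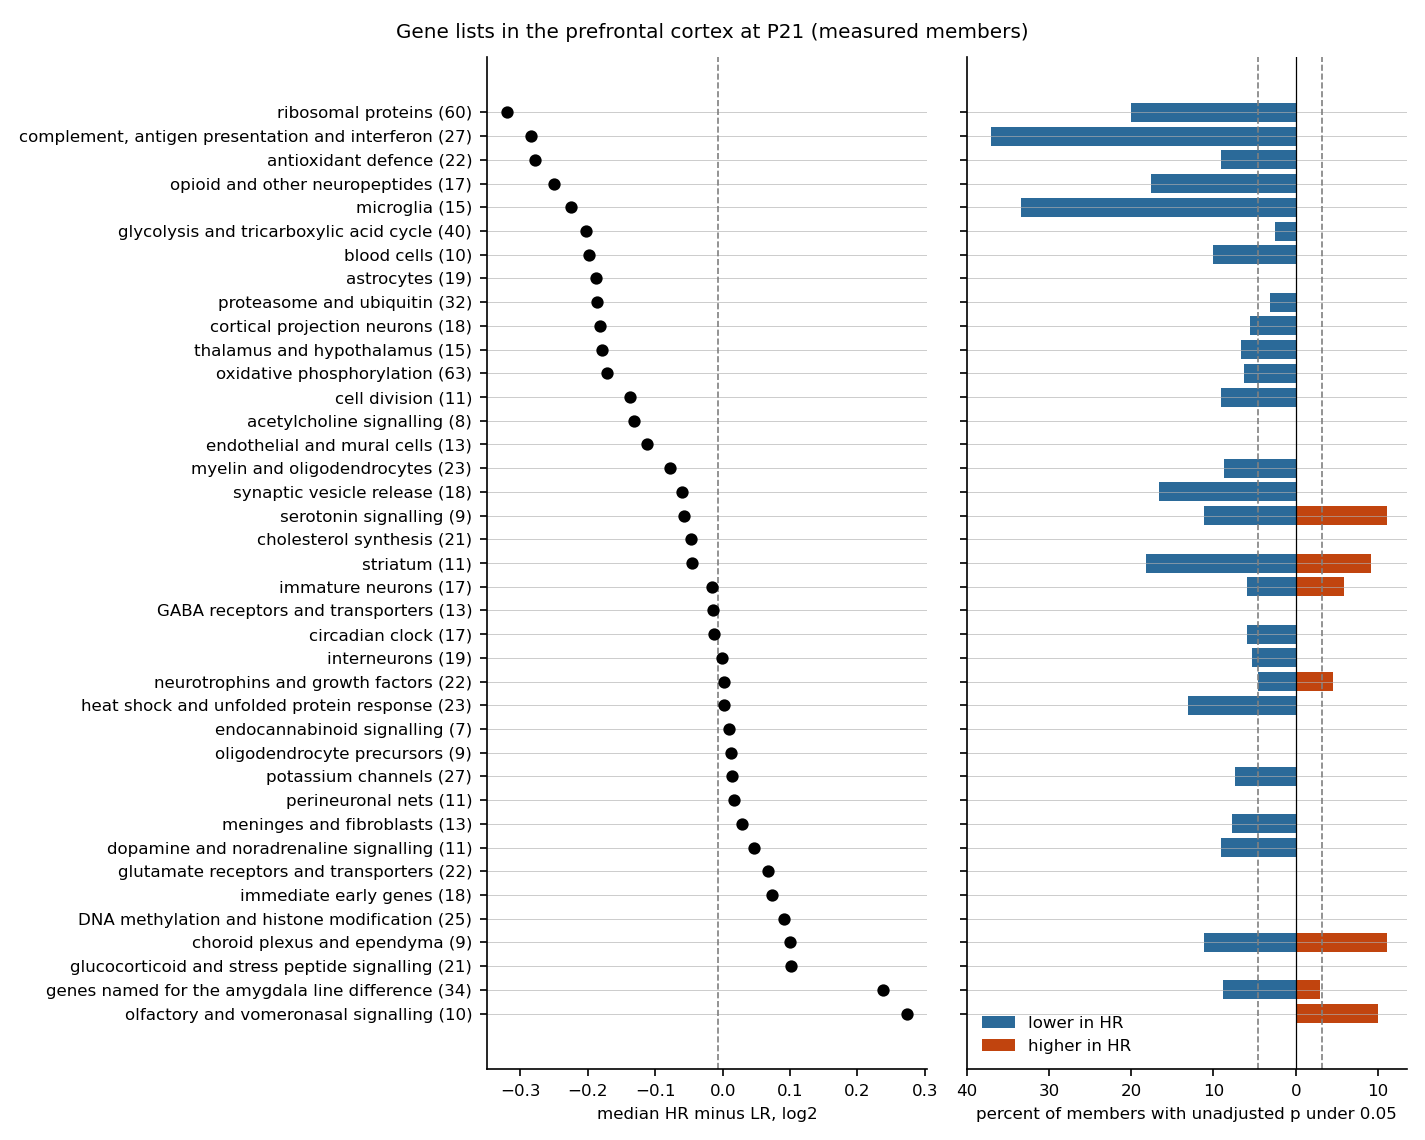
Median HR minus LR (log2, left) and percent of measured members at an unadjusted p under 0.05 (right; lower in HR to the left of 0, higher to the right) for 39 gene lists in the prefrontal cortex at P21, with the number measured in brackets. Dashed lines mark all rows: a median of -0.01, 4.62% lower and 3.23% higher. Ribosomal proteins have the lowest median, -0.32, and the complement list the highest share lower in HR.

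Oxidative phosphorylation genes, whose products make up the respiratory chain and ATP synthase, had a median of -0.17 with 44 of 63 negative. At the unadjusted threshold 4 were lower (6.35%) and 0 higher, beside 624 lower and 308 higher of the 9282 brighter rows fitted alone. *Ndufa7* of complex I differed by -0.79 ± 0.30, *Uqcrc1* of the cytochrome bc complex by -0.84 ± 0.32, and the ATP synthase subunits *Atp5mc2* and *Atp5me* by -1.05 ± 0.41 and -0.56 ± 0.25. *Ndufa7* and *Atp5mc2* lost the unadjusted threshold without array 1, at -0.58 and -0.75, and *Uqcrc1* without array 2, at -0.67.

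Glycolysis and tricarboxylic acid cycle genes had a median of -0.20 with 32 of 40 negative, and 1 lower at the unadjusted threshold (2.5%). That gene was *Idh3b*, an isocitrate dehydrogenase subunit (-0.97 ± 0.40), and without array 1 it was at -0.73, no longer at that threshold. *Aldoa*, a glycolytic aldolase, stood at 487, 8713, 8986, 1772 and 17835 in HR and 9899, 5192, 3620.0, 6345 and 17038 in LR, with array 1 the lowest and array 5 the highest. Antioxidant genes had a median of -0.28, with 2 of 22 lower, *Gpx4*, which reduces lipid peroxides (-0.60 ± 0.25), and the metallothionein *Mt1* (-0.60 ± 0.26). *Gpx4* differed by -0.34 without array 1. Its unadjusted p in limma rose as high as 0.155 with 1 array left out. Proteasome genes had 1 of 32 lower, *Psmb6* (-1.07 ± 0.41), and a median of -0.19.

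Neuropeptide and opioid genes had a median of -0.25 with 3 of 17 lower. *Cort*, which encodes the interneuron peptide cortistatin, stood at 1028, 313, 1368, 4087 and 883 in HR and 2244, 2522, 4797, 2999.6 and 1494 in LR and differed by -1.25 ± 0.44. *Cck*, the cholecystokinin gene of cortical interneurons and projection neurons, stood at 17795, 11565, 36481, 30620.0 and 25837 and 38850.0, 36333, 33194, 34191 and 25540.0 and differed by -0.56 ± 0.23. *Tac1*, the substance P precursor, differed by -1.05 ± 0.43. Array 2 was the lowest of the 10 for all 3 genes, and without it the differences were -0.80, -0.31 and -0.66, none at the unadjusted threshold.

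Synaptic vesicle genes had a median of -0.06 over 18 measured members. *Stx1a*, which encodes a syntaxin of the vesicle fusion machinery, did not overlap between lines, at 59.1, 50.9, 65, 55.4 and 49.1 in HR and 81.3, 94.2, 123, 71 and 67.1 in LR, a difference of -0.62 ± 0.20. *Snap25*, its partner at the presynaptic membrane, had the other sign, 0.46 ± 0.23.

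Receptor lists held few genes at the unadjusted threshold. There were 0 of 22 for glutamate receptors and transporters, 0 of 13 for GABA, 0 of 8 for acetylcholine and 0 of 21 for glucocorticoid and stress peptide signalling. Serotonin signalling held 2 of 9, *Htr1b* (0.46 ± 0.21) and *Htr3a* (-0.56 ± 0.24), and dopamine and noradrenaline signalling 1 of 11, *Th*, the tyrosine hydroxylase gene (-0.50 ± 0.21). Potassium channels held 2 of 27, *Kcnj9*, an inward rectifier subunit (-0.98 ± 0.32), and *Kcnab2* (-0.61 ± 0.28). The amygdala difference of *Kcnj9* was -1.01 ± 0.26, called with an adjusted p of 0.012.

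Growth factor genes held *Igf1* (-0.85 ± 0.30) and *Vegfa* (0.50 ± 0.22) of 22 at the unadjusted threshold, in opposite directions. *Igf1* stood at 179, 614, 677, 597 and 628 in HR, array 1 the lowest, and at 665, 925, 889, 1052 and 919 in LR. Its difference was -0.49 without array 1. With 1 array left out the unadjusted p in limma rose as high as 0.0711 for *Igf1* and 0.1 for *Vegfa*. *Dbp*, a clock-controlled transcription factor and 1 of 17 circadian genes at the unadjusted threshold, differed by -1.18 ± 0.43 and by -0.67 without array 1. The highest unadjusted p of *Dbp* with 1 array left out was 0.0754 in limma. Heat shock and unfolded protein response genes had a median of 0.00 and 3 of 23 lower, *Hspb1* (-1.02 ± 0.35), *Ddit3* (-0.93 ± 0.36) and *Atf4* (-0.91 ± 0.39). Immediate early genes, perineuronal net genes, DNA methylation and histone genes, cholesterol synthesis and endocannabinoid genes held 0 of 18, 11, 25, 21 and 7.

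Among other cell types, *Ptgds*, the prostaglandin D synthase of meninges and choroid plexus, stood at 7522, 4620.1, 6667, 9232 and 10163 in HR. In LR it stood at 18820.0, 16266, 11614, 26914 and 10548. The lines did not overlap, and the difference was -1.11 ± 0.31 (adjusted p = 0.437), beside 0.63 at P14. In the amygdala it was -1.001 ± 0.20, called there with an adjusted p of 0.0012. Of 13 measured meningeal markers it alone stood at the unadjusted threshold, and the collagen *Col1a2* of the same cells differed by 0.03 ± 0.53. The summed meningeal intensity, which includes *Ptgds*, was 7865 to 13440 in HR and 13820 to 31870 in LR. By member, 7 of the 13 markers had a positive difference and 6 a negative one, with a list median of 0.03. The part of meningeal tissue in the *Ptgds* difference was not tested.

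Myelin genes had 2 of 23 lower, *Cryab*, a small heat shock protein of oligodendrocytes (-1.09 ± 0.45), and *Mbp*, myelin basic protein (-1.02 ± 0.43). Without array 1 these were -0.83 and -0.64, neither at the unadjusted threshold. Over all 29 rows of the listed myelin genes 6 were lower, since 3 further rows of *Mbp* (-0.80 to -1.22) and a dimmer row of *Mobp*, another myelin protein gene (-1.78 ± 0.57), stood at it too. The brightest row of *Mobp* differed by -1.05 ± 0.55. Oligodendrocyte precursor and endothelial lists held 0 of 9 and 0 of 13. Markers of immature neurons held *Neurod1* (0.67 ± 0.30) and *Dpysl3* (-0.45 ± 0.22) of 17, and cell division genes the checkpoint kinase *Bub1* (-0.48 ± 0.21) of 11. Choroid plexus markers held *Sostdc1* (0.73 ± 0.24) and *Rarres2* (-0.97 ± 0.43) of 9. Interneuron markers held *Cck* of 19, thalamic and hypothalamic markers *Agrp* (-0.72 ± 0.31) of 15, and olfactory genes *Gnal* (0.60 ± 0.28) of 10. Striatal markers, a sign of deeper tissue, held *Gng7* (-1.08 ± 0.40) and *Tac1* lower and *Adora2a* (0.52 ± 0.24) higher, of 11.

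Arrays 1 and 2 differed from the rest in genes picked here after their values were seen. In array 1 *Apoe*, the astrocyte lipid carrier, stood at 479 against 8859.8 to 24942 in the other HR arrays. *Bcan*, a perineuronal net proteoglycan, stood at 416 there against 7066 to 31228, and *Bsg*, a membrane protein of blood vessels, at 86.6 against 2033 to 8386. In array 2 *Ttr*, the transthyretin gene of the choroid plexus, stood at 45096, against 206 to 2592 in LR. *Gal*, the galanin peptide gene, stood at 8145 in array 2 and at 701 to 1066 in LR, and *Nts*, the neurotensin gene, at 805 against 41.1 to 98.8. *Sst*, the somatostatin gene of interneurons, was lowest in array 2, at 2169 against 9233 to 27765 in LR.

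The summed choroid plexus intensity was 46588 in array 2 and 976 to 4980 in the other 9 arrays. The median over all rows was close in each array, 77.1 to 79.95 in HR and 76.6 to 78.8 in LR. The array scores on the main axis of variation within groups, built from the P7 and P14 arrays alone, were -37.7, -10.4, 16.2, -5.34 and 48.2 in HR and 11.6, 17.8, 20.2, 47.4 and 44.6 in LR. The lines differed by -26.1 on that score, with p = 0.159 in a two-sided exact permutation test over the arrays, whose smallest possible p is 0.00794.

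**Figure D4:**
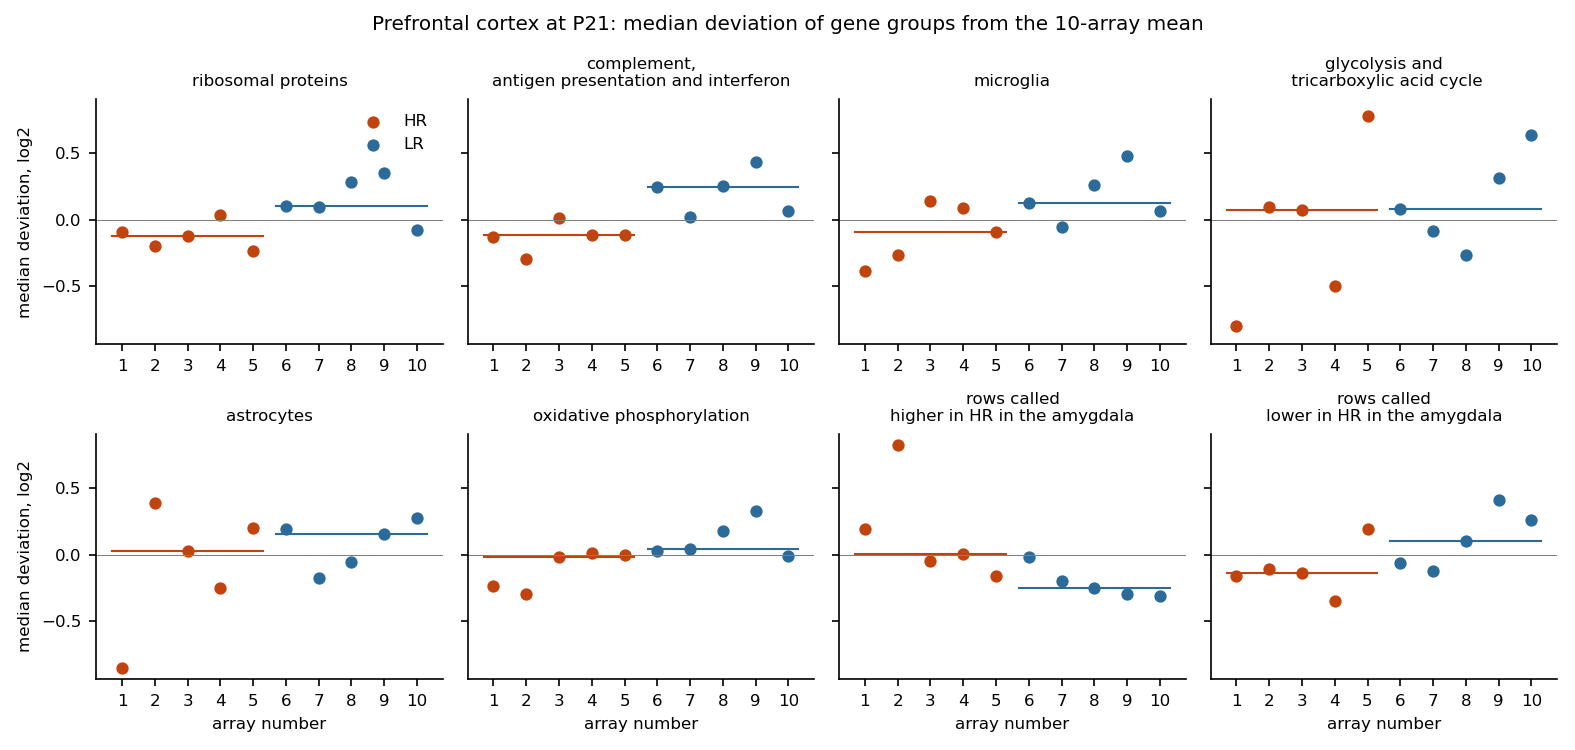
Median log2 deviation of the members of a gene group from their mean over the 10 arrays, by array number, in the prefrontal cortex at P21; lines are the medians of HR (arrays 1 to 5) and LR (arrays 6 to 10). Array 1 is lowest for astrocytes (-0.85) and for glycolysis (-0.80), and array 2 is highest for rows called higher in the amygdala (0.83).

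Rows called in the amygdala are given here by their prefrontal values, without a test, since the tables were normalized apart and share their sample codes. Of rows called higher in HR in the amygdala, 926 were measured in the prefrontal cortex, and 765 (82.6%) had a positive difference there. At the unadjusted threshold 156 (16.8%, beside 3.23% of all rows) were higher and 2 were lower, and the median prefrontal difference was 0.42. Of rows called lower, 707 were measured, 480 (67.9%) were negative, 75 (10.6%, beside 4.62% of all rows) were lower at the unadjusted threshold and 10 higher, and the median was -0.20. Most were bright: 615 of the 707 (87.0%) stood at or above the median row, with a median of -0.26, while the dimmer ones had 0.06. All rows of that brightness had a median of -0.065. Of the 926 rows 766 (82.7%) were bright, with a median of 0.47, beside 0.24 in the dimmer ones. Among rows of both tables not called in the amygdala, 56.3% had the same sign in both regions.

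Much of the first shift lay in HR array 2. The median deviation of the 926 rows from their 10-array mean was 0.19, 0.83, -0.05, 0.01 and -0.16 in HR arrays 1 to 5. In LR arrays 6 to 10 it was -0.02, -0.20, -0.25, -0.30 and -0.31. Without array 2 the median difference was 0.22 and 74.9% of rows were positive. With any other array left out it stayed between 0.395 and 0.492. For the 707 rows the median was -0.13 without array 4 of HR or array 9 of LR, and -0.27 without array 5.

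At P14 the 926 rows had a median prefrontal difference of 0.12 and 59.2% were positive, and at P7 0.03 and 52.5%. The 707 rows had medians of -0.13 at P14 and -0.20 at P7, with 64.8% and 71.3% negative.

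Single genes picked for their amygdala values are given in both regions. *Pmch*, the melanin-concentrating hormone precursor, had an amygdala difference of -3.08 ± 0.21 (adjusted p = 3e-11) and a prefrontal one of -0.32 ± 0.34, where its row was dim in most arrays. *Nipsnap1*, a mitochondrial protein gene, differed by -2.32 ± 0.19 and -0.85 ± 0.51. *Gria2*, an AMPA receptor subunit, differed by -1.15 ± 0.22 there (adjusted p = 0.00044) and by 0.07 ± 0.32 here.

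*Potem* and *Tex35* showed their prefrontal differences in few arrays. *Potem* stood at 1283, 9603, 134, 151 and 107 in HR and 187, 90.6, 107, 310.1 and 124 in LR, and *Tex35*, a testis-expressed gene, at 263, 777, 88.7, 73.6 and 62.8 and 61.7, 61.8, 62.8, 93.9 and 49.2. Arrays 1 and 2 were the highest of the 10 for both genes, and the other HR arrays overlapped LR. The prefrontal differences were 1.72 ± 0.88 and 1.25 ± 0.57, beside 3.23 ± 0.24 and 2.19 ± 0.26 in the amygdala. Of the 34 genes of this list, 3 were lower (*Sox2*, *Hba-a3* and *Mrpl43*) and 1 higher (*Tex35*) at the unadjusted threshold. Without array 2 *Tex35* differed by 0.66 and *Potem* by 0.64, and *Tex35* missed that threshold when either array 1 or array 2 was left out. The contrast of the regions was not tested.

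**Figure D5:**
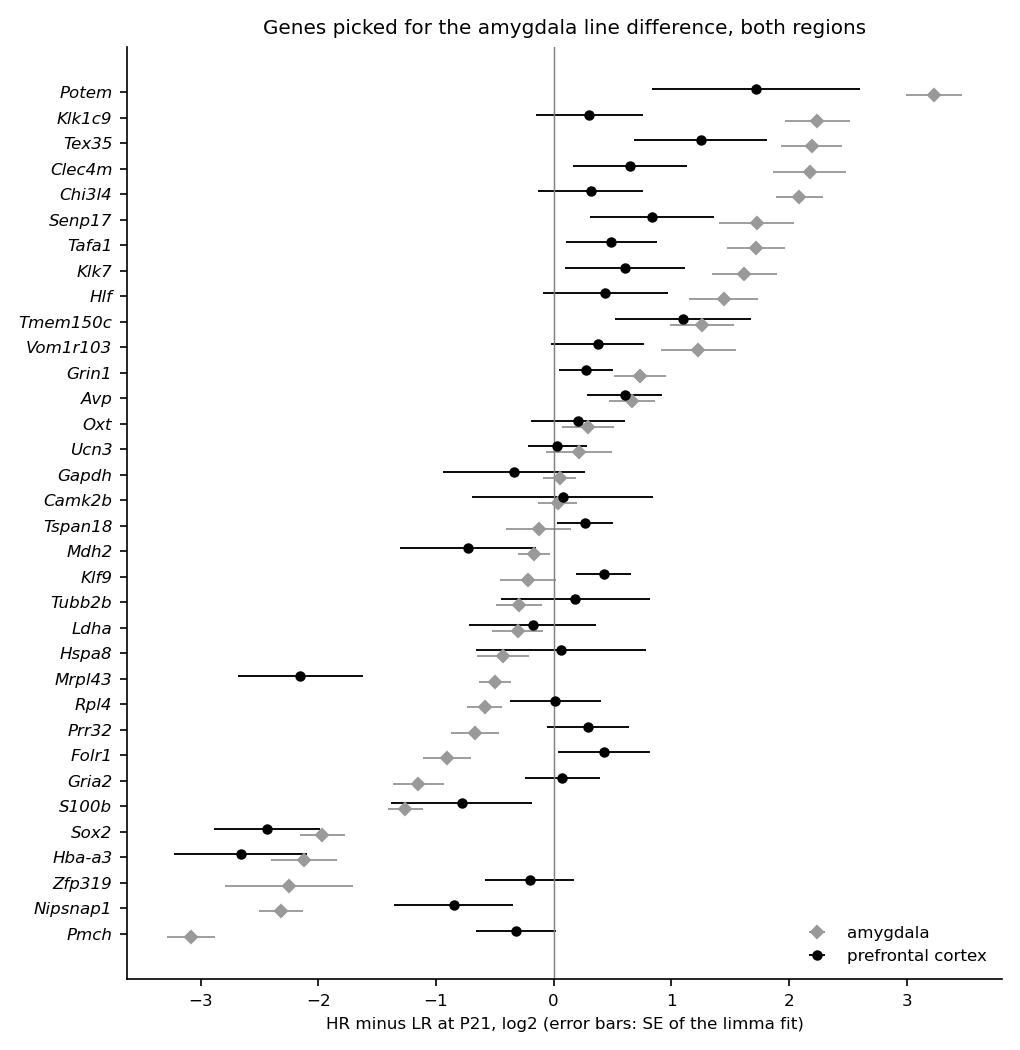
HR minus LR at P21 (log2, error bars are SE) in the prefrontal cortex (black circles) and the amygdala (grey diamonds) for 34 genes picked for their amygdala values, sorted by the amygdala difference. *Sox2* and *Hba-a3* lie well below 0 in both regions, and *Pmch* lies at -3.08 in the amygdala beside -0.32 for prefrontal cortex.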

How the data were processed

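RNA of prefrontal cortex and amygdala, 5 samples per line, age and region, was hybridised to single-colour NimbleGen arrays. The extract protocol describes dissection of the amygdala for all samples, so each sample's region rests on its own brain region label. The deposited tables hold intensity values that the authors normalized with RMA, per the submitters' processing notes (version not given in the sources used here). The plan assumed log2 values; the deposited intensity values were linear, so log2 was taken here before fitting. After leaving out 1 control row, 18564 prefrontal rows were tested; 14334 were named through RefSeq by gene ID or accession, 3363 kept the deposited symbol and 867 had none. No pair of arrays held identical values. Group means of all 6 prefrontal groups were fitted with limma 3.58.1 (R 4.3.3) and moderated with eBayes. Lists use 1 row per gene, the brightest. Named genes are the 12 with the smallest p in each direction, since none passed, leaving out provisional locus names, and up to 4 members of a list with the smallest p; further list members were picked after their values were seen, and some of these genes are not reported here. Members and lists were chosen with earlier results of these data known. The fit was also run on simulated data, with independent noise and the same spread in every group. That setting lacks the wider spread of HR and the arrays that stood apart, so it cannot show how the fit handles them. Alternatives were scale, filter, normalization, centring, groups fitted, weights, moderation, blocks, component covariate, left-out arrays and the series matrix. Precision is limited by the number of arrays.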

Additional observations from a re-analysis of the deposited data

Results flagged for a closer look

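An array of 5 lay far from the other 4 of its group, past Dixon's critical value of 0.71 for the gap over the range of log2 intensity, in 16 of 154 groups of values; chance gives about 1 in 20. Of the 16, 11 fell on HR array 1. Array 1 was the lowest HR array for *Hist1h2bg* (71.5), *Apoe* (479), *Cryab* (356), *C1qa* (98.2), *C1qb* (78.2), *Igf1* (179), *Atp5mc2* (167), *Rps10* (6529.5) and *Rpl29* (5640.1), and the highest for *Kcnn4* (191) and *Wipi1* (876). HR array 2 stood apart with low *Sst* (2169) and high *Gal* (8145). Among LR arrays, array 10 stood apart for *Mrpl43* (1508.5), array 8 for *Zfp414* (338) and array 7 for *Kcnj9* (88.7). Part of these genes were chosen after their values were seen.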

How the results depend on the processing

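At P21 the count of called rows was 0, and it was 1 with quantile normalization (*Sox2*, adjusted p = 0.0424), 4 with array weights, 1 with blocks of 12 array numbers (adjusted p = 0.0231), 1 with 1 weight per group of arrays and 1 without arrays 2 and 9, the last pair of settings added after seeing the data. Leaving out each array in turn gave 0 to 3, with 1 without HR array 2 (*Sox2*), 1 without HR array 4 (RGD1563145, also called with array weights) and 3 without HR array 5. *Sox2* was called in 7 of 23 alternatives, with adjusted p from 0.00653 to 0.435, and no named gene changed sign (547 values, 11 of them called). Among listed genes the count of 0 became 1, *Sox2*, with quantile normalization, array weights, blocks, 1 weight per group and without arrays 2 and 9, and 0 to 1 with arrays left out. Rows at the unadjusted threshold numbered 932 among brighter rows, 901 without arrays 2 and 9, and 948 to 2055 with arrays left out. Ribosomal genes at that threshold numbered 7 without arrays 2 and 9 and 6 to 18 with arrays left out; complement genes 3 and 5 to 11; microglia markers 2 and 1 to 5, 3 with quantile normalization or array weights and 2 with the component covariate. At P14 1 row was called with only the compared groups fitted, at P7 2 with blocks, and for the change from P7 0 to 1 with arrays left out. The amygdala count was 616 with blocks (449 higher, 167 lower). There the P21 HR arrays shared a block with array 36 alone of LR, so block and line were nearly confounded. In the prefrontal cortex at P7 array 25 alone of HR shared a block with LR. Leaving out HR array 1 gave the lowest counts (948, 6, 5 and 1), the complement count being 5 without LR array 9 too. The cause was not tested. With the replicate block, from the title numbers in the series matrix, 0 rows were called and 1386 stood at the unadjusted threshold; same-numbered HR and LR samples correlated from -0.111 to 0.467, and only replicate 5 correlated best with its own number, so the numbers were not taken to pair samples. For the amygdala, weights, moderation, the component and left-out arrays were not run. With 5 arrays per line the median SE was 0.26, which limits the differences that could be called.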
